A study of Mus musculus with 6 samples.

Results

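The SHC adaptor family has 4 genes in the mouse, Shc1, Shc2, Shc3 and Shc4, and all 4 were listed among the 24214 features counted in each sample. They were read by symbol from RNA sequencing of transfectants of an epithelial lung adenocarcinoma line of mice (strain C57BL/6). The line was transfected either with a ZEB1 expression vector (393P_ZEB1, n = 3) or with the empty vector (393P_vector, n = 3), and both groups grew in RPMI-1640 with fetal calf serum. The comparison asks how transcript levels differ when ZEB1, a transcription factor that activates the epithelial-to-mesenchymal transition, is expressed from a vector. The study selected stable transfectants with a drug, and neither the number of clones behind each line nor separate cultures behind the replicates are stated, so p-values measure the spread among these samples, which may be technical. A difference between the 2 lines that does not come from ZEB1 cannot be told apart from one that does.

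SHC proteins are adaptors without enzymatic activity. Their phosphotyrosine-binding and SH2 domains dock on activated receptors and integrin complexes, and phosphorylated tyrosines in their central region recruit GRB2 and SOS, which load RAS with GTP and start the ERK cascade. Shc1 is expressed in most tissues and has a long isoform, p66, linked to oxidative stress, whereas Shc2 (also called Sck or ShcB) and Shc3 (ShcC, N-Shc) are known mainly from neurons. Shc4 (ShcD, RaLP) is known from melanoma and brain. RNA was measured here, not protein or phosphorylation.

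The family was chosen by measured values. Among genes of at least 5 CPM on average whose groups did not overlap, Shc2 had the third largest increase of the contrast. Its log2 difference of 7.59 lay between Smoc2 (7.62) and Slc1a3 (7.13). Rasef (7.08) was the last of the 5 largest and Emb (7.001) the next below it. The values of the members in this contrast are therefore a description, given with standard errors and with no test. Of the 4 members, 3 passed the filter on low counts, and Shc3 did not. In bulk RNA, fewer cells with a transcript and less of it per cell cannot be told apart. Across all 13892 genes that passed, edgeR's quasi-likelihood test with Benjamini-Hochberg adjustment called 18.3% higher in 393P_ZEB1 and 19.3% lower. In 26.3% of them every 393P_ZEB1 sample lay above every 393P_vector sample. Nothing about the family is read from its own count of 3 separated members against these shares, since the contrast chose it.

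Libraries held between 54442450 and 79158012 counts. At these depths 3 counts, taken as the smallest level that can be shown, were worth between 0.0361 and 0.0561 CPM (read counts divided by TMM-adjusted depth). Zeb1 itself was at 21.5 ± 0.435 CPM (SD, n = 3) in 393P_vector and 51.7 ± 3.01 CPM in 393P_ZEB1, a log2 difference of 1.26 ± 0.10 (SE). Vector replicate 3 stood apart: 6.89% and 7.75% of genes differed at least 2-fold between it and the other vector replicates, against 0.900% between those and at most 1.29% between 393P_ZEB1 samples. The 7 epithelial markers summed to between 4638 and 5300 CPM in 393P_vector and between 2746 and 3042 CPM in 393P_ZEB1. Epcam went from 122 to 1.31 CPM and Cdh1 from 162 to 9.51 CPM. Of 6 lung epithelial markers only Foxa2 was above 1 CPM, and Scgb1a1 had no count in any sample, so the tissue named in the labels is not shown by its defining markers.

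Some sequences bear on the family because the study names microRNAs that ZEB1 silences, the miR-200 family, miR-206 and miR-148a. MicroRNAs repress transcripts that pair with their seed, and their own levels were not analysed here. The mature mouse sequences of the 3 with a match in a member, from RefSeq, carry the seed (bases 2 to 8) in capitals. The first and second share a seed.
mmu-miR-200a-3p: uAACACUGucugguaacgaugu
mmu-miR-141-3p: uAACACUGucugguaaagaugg
mmu-miR-148a-3p: uCAGUGCAcuacagaacuuugu
The 3′ UTRs of the members' GENCODE M21 transcripts were searched for the 7 bases pairing with each seed. The match is in capitals.
Shc1: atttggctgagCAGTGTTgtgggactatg
Shc2: gaggacctagaTGCACTGttgcttttggg
The Shc1 match for miR-200a and miR-141 lies on the + strand at chr3:89429825-89429831 (GRCm38), and starts 1380 bases into a 3′ UTR of 1570 bases in the gene's longest transcript. It is absent from another Shc1 transcript, whose 3′ UTR has 654 bases. The Shc2 match for miR-148a lies on the − strand at chr10:79619700-79619706, 399 bases into a 3′ UTR of 1453 bases. Shc3 and Shc4 had no match for any of these seeds, and no member matched the seed shared by miR-200b, miR-200c and miR-429 or that of miR-206. Such matches are common: CAGTGTT was in the 3′ UTR of 17.08% of 20922 genes and TGCACTG in 12.57%. A match is a description of letters and does not show binding.

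Promoters of 300 bases around the annotated starts were searched for E-box sequences of the kind ZEB1 is known to bind. CAGGTG, searched on both strands, was in 20.21% of 32851 RefSeq promoters and in none of the promoters of Shc1, Shc2 and Shc4. Shc3 was not in the promoter table. The shorter CACCT, which CAGGTG contains on its other strand, was in 51.93% of promoters. Among the members it was found only in the second promoter of Shc1 (chr3:89421371-89421670, GRCm38.p6), once on each strand, with the motif or its reverse complement in capitals.
Shc1 −189: tttcgcgccgggCACCTcctccttcccag
Shc1 −117: aattgtgtggggAGGTGtctcagcccctc
The Shc2 promoter was the richest in CG, with 24 CG dinucleotides and 65.7% G or C, and 80.0% of promoters had fewer. Both measures were nearer to the medians of 7 and 52.7% in Shc4 (13 and 47.3%) and in the first promoter of Shc1 (13 and 53.7%). The second promoter of Shc1 had 4.

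Shc2 went from near absence to a clear level. The gene spans chr10:79617938-79637918 on the − strand, with 13 exons and 3944 exonic bases. Vector replicates 1 to 3 held 3, 14 and 8 counts, and 393P_ZEB1 replicates 1 to 3 held 1284, 1331 and 1625. On the CPM scale the vector samples stood at 0.0530, 0.238 and 0.0963 and the 393P_ZEB1 samples at 23.999, 23.96 and 26.6. The groups were far apart, and the lowest 393P_ZEB1 sample was 101-fold above the highest vector sample. Mean levels were 0.129 ± 0.0967 CPM (SD, n = 3) and 24.9 ± 1.52 CPM, and the fitted log2 difference was 7.59 ± 0.36 (SE), or 193-fold. The size of the fold rests on the few vector reads. Summed over samples, 4240 counts stood against 25, a depth-scaled ratio of 198 with an exact 95% interval of 134 to 306 that covers counting error only. Without vector replicate 2, which held 14 of those reads, the log2 difference was 8.28.

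Reads on Shc2 were spread over the gene in 393P_ZEB1. All 13 exons had more than 10 reads in each of the 3 samples, whereas in the vector samples 0, 1 and 0 exons passed that mark. By fitted increase Shc2 ranked 4 among the 13892 tested genes when those of low mean level were included.

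Shc1, the ubiquitous member that encodes the p46, p52 and p66 isoforms, was by far the most abundant of the family in both groups. It spans chr3:89418551-89430029 on the + strand, with 14 exons and 3700 exonic bases. The vector samples held 9208, 9519 and 8506 counts and the 393P_ZEB1 samples 13913, 13227 and 14552. This corresponded to 162.7, 161.8 and 102.4 CPM in 393P_vector and to 260.04, 238.1 and 238.35 CPM in 393P_ZEB1. The groups did not overlap, and the lowest 393P_ZEB1 sample was 1.46-fold above the highest vector sample. Vector replicates 1 and 2 were alike, 1.01-fold apart, while replicate 3 was 1.59-fold and 1.58-fold below them. Means were 142 ± 34.6 CPM (SD, n = 3) and 245 ± 12.6 CPM, a log2 difference of 0.79 ± 0.18 (SE), or 1.73-fold. Without vector replicate 3 it was 0.60 ± 0.08. Ordered from the largest increase to the largest decrease, its log2 difference ranked 1517, above 89.1% of tested genes. All 14 exons had more than 10 reads in every sample. The tables sum a gene's exons, so p66 cannot be told apart from the shorter isoforms.

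Shc4, the member described in melanoma, was low in the vector samples and had a larger fold difference than Shc1. It spans chr2:125627447-125724148 on the − strand, with 12 exons and 4808 exonic bases. Counts were 191, 249 and 239 in 393P_vector and 629, 748 and 828 in 393P_ZEB1. The corresponding levels were 3.37, 4.23 and 2.88 CPM against 11.8, 13.5 and 13.6 CPM. No sample of one group reached the range of the other, and the lowest 393P_ZEB1 sample was 2.78-fold above the highest vector sample. Means were 3.49 ± 0.686 CPM (SD, n = 3) and 12.9 ± 1.02 CPM, and the log2 difference was 1.89 ± 0.18 (SE), or 3.70-fold. It ranked 509, above 96.3% of tested genes. Exons with more than 10 reads numbered 3, 6 and 5 in the vector samples and 8 in each 393P_ZEB1 sample, of 12.

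Shc3, the neuronal member, was at or near the floor in both groups. It spans chr13:51431042-51567084 on the − strand, and its 12 exons are listed with 1524 bases. The vector samples held 0, 2 and 4 counts and the 393P_ZEB1 samples 0, 2 and 1. The highest level was 0.0481 CPM, in vector replicate 3, the only sample with more than 3 counts. No fold is given for values this low, and a difference was not detectable at this depth.

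**Figure D1:**
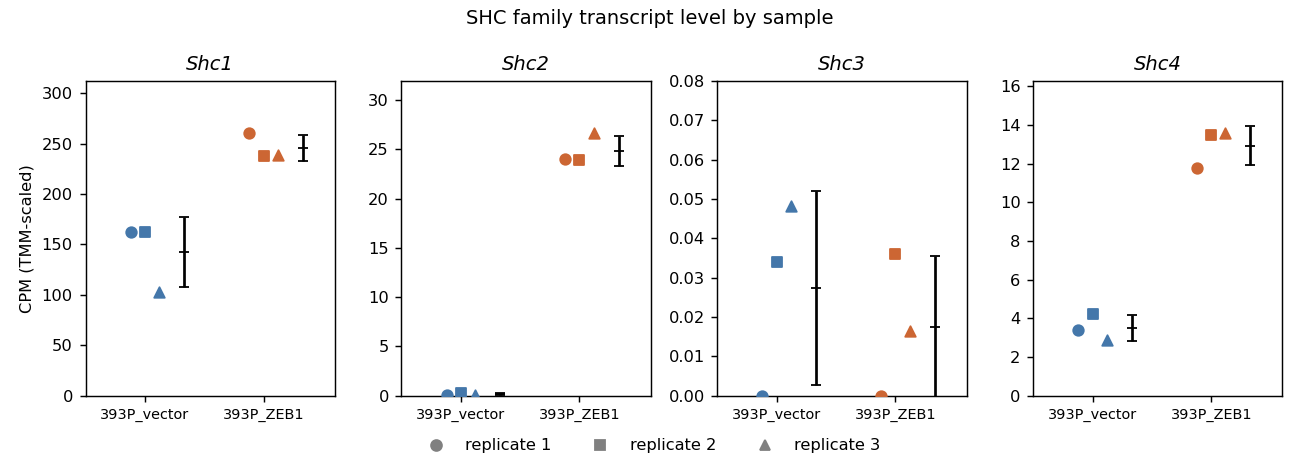
TMM-scaled CPM of Shc1, Shc2, Shc3 and Shc4 in each 393P_vector and 393P_ZEB1 sample, on linear axes that start at 0 and differ between panels. Symbols mark the replicate, black bars the group mean ± SD (n = 3, not drawn below 0). The groups are separate for Shc1, Shc2 and Shc4, and the Shc3 points stand for at most 4 counts.

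Levels of different members were compared per kilobase of exon. In 393P_vector the order was Shc1 at 38.5 ± 9.34 CPM per kilobase (SD, n = 3), Shc4 at 0.727 ± 0.143, and Shc2 at 0.0327 ± 0.0245. Shc2 and Shc3 did not differ there beyond their spread, and both were near the floor. In 393P_ZEB1 the order was Shc1 at 66.4 ± 3.40, Shc2 at 6.30 ± 0.386, Shc4 at 2.69 ± 0.211, and then Shc3. Shc2 thus passed from below Shc4 to above it. The ratio of Shc2 to Shc4 per kilobase was 0.0428 ± 0.0248 in 393P_vector and 2.35 ± 0.164 in 393P_ZEB1. Shc1 remained 10.6 ± 1.00 times as high as Shc2 in 393P_ZEB1.

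The makeup of the family's transcripts moved accordingly. The summed level of the 4 genes was 39.2 ± 9.45 CPM per kilobase in 393P_vector and 75.4 ± 3.02 in 393P_ZEB1. Shc1 made up 98.0 ± 0.373% of that sum in 393P_vector and 88.0 ± 1.07% in 393P_ZEB1. The share of Shc2 was 0.0838 ± 0.0525% and 8.38 ± 0.703%, and that of Shc4 1.88 ± 0.281% and 3.58 ± 0.413%. Shc3 made up at most 0.112% in any sample. These shares assume that the listed exon lengths apply.

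**Figure D2:**
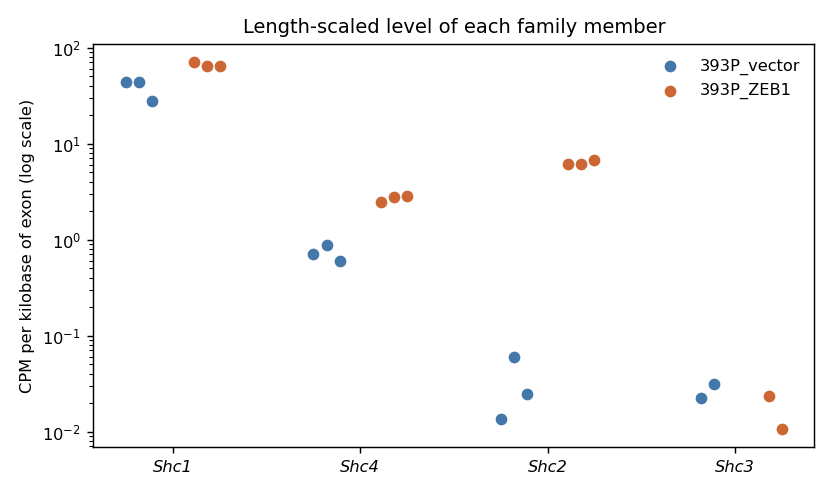
Level of each SHC gene in CPM per kilobase of exon on a log axis, 1 point per sample (blue 393P_vector, orange 393P_ZEB1); the sample of each group with no Shc3 count is not drawn. Shc1 is highest in all 6 samples, Shc2 moves from below Shc4 to above it, and Shc3 stays lowest in 393P_ZEB1.

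Markers of the cell types in which Shc2, Shc3 and Shc4 are best known were also read. The 11 neuronal markers summed to between 30.3 and 36.4 CPM in 393P_vector and between 37.8 and 38.6 CPM in 393P_ZEB1. Most of that sum was Mtap2 (27.2 ± 3.78 and 30.8 ± 0.736 CPM), a microtubule protein listed under its older symbol. The defining neuronal marker Rbfox3 was at 0.126 and 0.159 CPM. Snap25, a synaptic fusion protein, was higher in 393P_ZEB1 (0.0488 to 2.71 CPM, log2 difference 5.82, edgeR adjusted p = 5.63e-05). Its vector mean lay near the floor, so the size of that difference rests on few reads. The neuronal tubulin Tubb3 was lower (3.01 to 1.35 CPM, log2 difference -1.15, edgeR adjusted p = 0.00316). The 6 melanocyte markers summed to between 2.84 and 5.01 CPM over all samples, and Mitf was the highest of them (3.44 and 2.34 CPM on average). The part of these genes in the SHC levels was not tested.

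Genes that act with SHC proteins were described in 6 lists. Of 119 listed genes 106 were tested by edgeR, and 25 were higher and 26 lower in 393P_ZEB1, which is 23.6% and 24.5% beside 18.3% and 19.3% of all tested genes. Their median log2 difference was 0.02, beside -0.02 over all tested genes. The lists therefore held genes moving both ways, as the plot by role shows, and nothing particular to them is read from these counts.

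Receptors that dock SHC proteins came first. Of 21 receptor tyrosine kinases 14 were tested, with a median of -0.24. Calls were 3 higher and 6 lower, beside 18.3% and 19.3% of all tested genes. Erbb3, which signals with ERBB2, fell from 38.7 ± 4.18 to 1.4998 ± 0.343 CPM (log2 -4.69, edgeR adjusted p = 2.74e-06). Ret, the receptor of the GDNF ligands, fell from 35.4 ± 6.23 to 0.490 ± 0.186 CPM (log2 -6.18, edgeR adjusted p = 5.29e-06). Kdr, the VEGF receptor known as a partner of the Shc2 protein, was low and fell from 1.91 ± 0.183 to 0.330 ± 0.112 CPM (log2 -2.51, edgeR adjusted p = 0.000309). The related VEGF receptor Flt4 went the other way, from 24.2 ± 4.62 to 84.7 ± 4.52 CPM (log2 1.81, edgeR adjusted p = 9.4e-05). Egfr, a main receptor upstream of Shc1, rose from 78.4 ± 2.30 to 119 ± 0.336 CPM (log2 0.61, edgeR adjusted p = 0.00136). Pdgfrb was low in both groups, at 0.206 ± 0.0351 and 0.467 ± 0.0815 CPM. It also passed (log2 1.18, edgeR adjusted p = 0.0152) but not without 393P_ZEB1 replicate 1, where edgeR's adjusted p was 0.0577. The neurotrophin receptor Ntrk3, of a group known to engage SHC proteins in neurons, did not pass the filter. Ntrk2, of the same group, was tested at 0.265 and 0.235 CPM and was not past the threshold (log2 -0.18, edgeR adjusted p = 0.724).

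SHC proteins are also phosphorylated downstream of integrins by Src-family kinases. All 14 genes of this route were tested, with a median of -0.09. Among them 4 were higher and 4 lower, beside 18.3% and 19.3% of all tested genes. Itga1, the collagen-binding α1 integrin, whose protein is known to couple to SHC, rose from 0.299 ± 0.121 to 32.0 ± 1.15 CPM (log2 6.70, edgeR adjusted p = 2.16e-06). The kinase Fyn, which links such integrins to SHC, rose from 13.9 ± 0.311 to 42.3 ± 1.12 CPM (log2 1.61, edgeR adjusted p = 1.63e-05), and Lyn rose by a log2 difference of 0.94 (edgeR adjusted p = 0.000522). Itgb4, the partner of the α6 integrin in hemidesmosomes, fell (log2 -1.05, edgeR adjusted p = 0.00389), as did Itgb3 (log2 -0.51, edgeR adjusted p = 0.00733) and Itga5 (log2 -0.59, edgeR adjusted p = 0.0164). Itga6, which encodes the α6 integrin, went the other way, from 830 ± 61.2 to 1313 ± 61.4 CPM (log2 0.66, edgeR adjusted p = 0.00226). The Itga5 call was lost without vector replicate 1 or any single 393P_ZEB1 replicate, where edgeR's adjusted p was between 0.0538 and 0.0739.

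**Figure D3:**
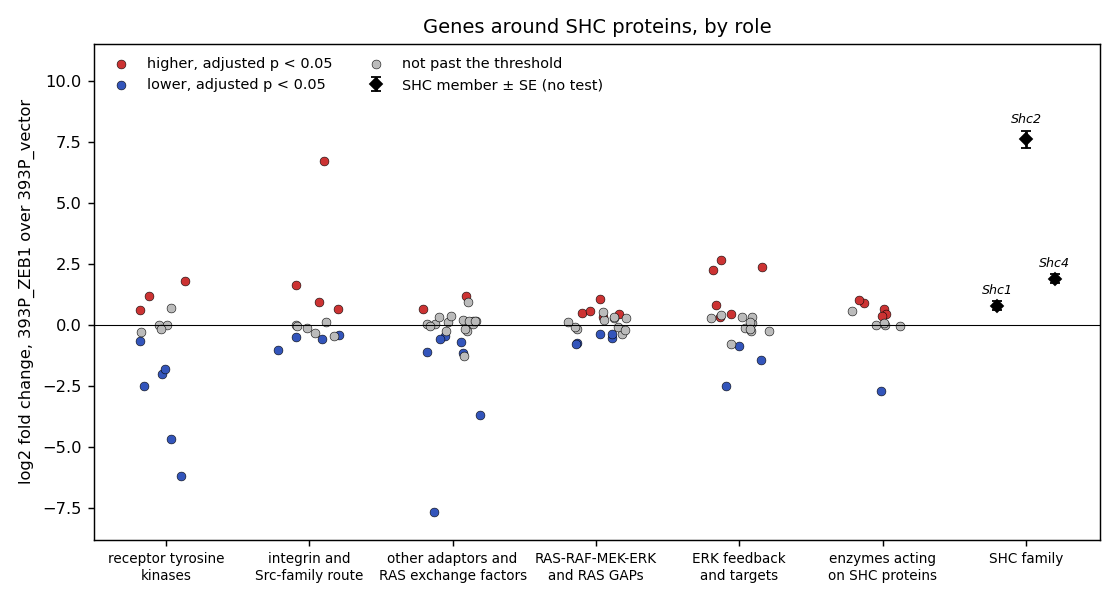
Log2 fold change of each tested gene in the 6 lists of genes around SHC proteins (393P_ZEB1 over 393P_vector), coloured by edgeR's call at an adjusted p of 0.05; points are spread sideways only for legibility. Black diamonds with SE bars are the 3 SHC members that passed the filter on low counts, given without a test: Shc2 (7.59) lies above every gene of the lists, of which Itga1 (6.70) is the highest, and Grb7 (-7.68) is the lowest. The family was chosen for the large increase of Shc2, so nothing is read from its place above the lists.

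The genes that link SHC proteins to RAS were read singly. GRB2, the adaptor that phosphorylated SHC recruits, was encoded at 30.6, 21.4 and 9.94 CPM in the vector samples and at 43.0, 46.9 and 29.4 CPM in 393P_ZEB1. The ranges overlapped, and the log2 difference of 0.95 ± 0.38 (SE) did not pass (edgeR adjusted p = 0.0862). It passed in 3 of 13 alternatives, among them without vector replicate 1 (edgeR adjusted p = 0.0255) and under DESeq2 (adjusted p = 0.0258). Over the 13 its log2 difference lay between 0.61 and 1.35. The exchange factors Sos1 (log2 -0.24, edgeR adjusted p = 0.469) and Sos2 (0.04, edgeR adjusted p = 0.844) and the docking protein Gab1 (0.05, edgeR adjusted p = 0.75) did not pass either. Shcbp1, whose protein binds the SH2 domain of SHC1, fell from 112 ± 4.42 to 73.8 ± 2.19 CPM (log2 -0.60, edgeR adjusted p = 0.00178).

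Of the 31 other adaptors and RAS exchange factors 26 were tested, with a median of 0.03. Calls were 2 higher and 7 lower, beside 18.3% and 19.3% of all tested genes. Grb7, an adaptor of ERBB receptors, fell from 29.3 ± 6.28 to 0.139 ± 0.0564 CPM (log2 -7.68, edgeR adjusted p = 2.41e-06). With 4, 9 and 11 counts in the 393P_ZEB1 samples, the size of that fold rests on few reads. Irs1 and Irs2, the docking proteins of insulin and IGF receptors, went in opposite directions, with log2 differences of 0.66 (edgeR adjusted p = 0.00137) and -1.16 (edgeR adjusted p = 0.000163). Dok2 was low and fell from 0.936 ± 0.232 to 0.0698 ± 0.0283 CPM (log2 -3.69, edgeR adjusted p = 0.000237). Its 393P_ZEB1 samples held 2, 5 and 5 counts, near the floor. The exchange factor Rasgrf2, also low, rose from 0.838 ± 0.163 to 1.93 ± 0.185 CPM (log2 1.19, edgeR adjusted p = 0.00401).

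In the RAS-RAF-MEK-ERK cascade all 21 genes were tested, with a median of 0.10. Among them 5 were higher and 5 lower, beside 18.3% and 19.3% of all tested genes. Mapk3, which encodes ERK1, rose from 64.7 ± 7.61 to 135 ± 12.4 CPM (log2 1.06, edgeR adjusted p = 0.000456). The small GTPases Mras (log2 -0.80, edgeR adjusted p = 0.00127) and Rras2 (-0.75, edgeR adjusted p = 0.00392) fell, as did the kinase Braf (-0.55, edgeR adjusted p = 0.0116). Nf1, which switches RAS off, rose (0.58, edgeR adjusted p = 0.013). Braf was not past the threshold without 393P_ZEB1 replicate 2 or 3 (edgeR adjusted p = 0.0604 and 0.0602), nor Nf1 without 393P_ZEB1 replicate 1 (0.0562). Of 10 calls in this list, the count was 1 in a test against a 1.5-fold change. It was 5 without vector replicate 1 or 2, 14 without vector replicate 3, and 4, 5 and 6 without 393P_ZEB1 replicates 1, 2 and 3.

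Transcripts that ERK signalling is known to induce came next, and nothing is read from their count. Of 20 tested, 6 were higher and 3 lower, beside 18.3% and 19.3% of all tested genes. The median of the list was 0.20. Egr1, an immediate early transcription factor, rose from 17.0 ± 1.62 to 87.6 ± 11.6 CPM (log2 2.36, edgeR adjusted p = 1.25e-05). Etv1 was low and rose from 0.464 ± 0.197 to 2.97 ± 0.458 CPM (log2 2.66, edgeR adjusted p = 0.000627). The feedback inhibitors of the Sprouty group split: Spry4 rose from 24.8 ± 2.09 to 117 ± 10.4 CPM (log2 2.24, edgeR adjusted p = 6.84e-06). Spry1 fell from 19.0 ± 0.679 to 3.32 ± 0.637 CPM (log2 -2.52, edgeR adjusted p = 2.22e-05), and Spry2 fell too (log2 -0.86, edgeR adjusted p = 0.000407). Phlda1 fell by 1.45 on the log2 scale (edgeR adjusted p = 0.000713). Egr1, Spry4 and Pdgfrb lie on chromosome 18, where the median log2 difference of 396 tested genes was 0.64. The medians were 0.27 on chromosome 11 (Egfr, Flt4, Grb2 and Nf1, and also Itgb3, Itgb4 and Grb7, which fell) and -0.36 on chromosome 6 (Ret, Braf and Ptpn6). Other chromosomes were shifted too, with medians of -0.43 on chromosome 17 (Sos1) and -0.33 on chromosome 15 (Itga5). The median was -0.30 on chromosome 10 (Erbb3 and Phlda1, and also Fyn, which rose). It was -0.26 on chromosome 14 (Spry2 and Dok2) and 0.25 on chromosome 16 (Cblb). The part of these chromosome-wide shifts in the values of single genes was not tested.

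Enzymes that act on SHC proteins, which are phosphatases, ubiquitin ligases and kinases, had 11 of 12 genes tested, with a median of 0.34. Calls were 5 higher and 1 lower (45.5% and 9.09%), beside 18.3% and 19.3% of all tested genes. Nothing about SHC regulation is read from a count over so few genes. Cblb, a ubiquitin ligase for activated receptors, rose from 79.0 ± 5.15 to 160 ± 8.20 CPM (log2 1.02, edgeR adjusted p = 0.000163). The phosphatase Ptpre, known to dephosphorylate SHC, rose (log2 0.91, edgeR adjusted p = 0.000482), and so did Ptpn2 (0.63, edgeR adjusted p = 0.0329), also on chromosome 18. The Ptpn2 call was lost when any sample but vector replicate 3 was left out, with edgeR's adjusted p between 0.0746 and 0.109. The count for the list was 3 without vector replicate 1 or 393P_ZEB1 replicate 2. Ptpn6, which encodes SHP-1, fell from 22.9 ± 0.908 to 3.54 ± 0.576 CPM (log2 -2.69, edgeR adjusted p = 1.11e-05).

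The genes around each member were read next. Of the 10 nearest neighbours of Shc2 6 were tested, with 1 higher and 1 lower, beside 18.3% higher and 19.3% lower of all tested genes, so nothing about the locus is read from the count. The gene that rose, C2cd4c, lies on the same strand, 3.913 kb beyond the 3′ end of Shc2, and went from 0.141 ± 0.0393 to 1.58 ± 0.0255 CPM (log2 3.43, edgeR adjusted p = 4.32e-05). Odf3l2, 1.608 kb from the start of Shc2, was at 0.0370 and 0.0117 CPM and was not tested. The nearest tested gene on that side, Gm16517, lies 31.5 kb away and did not pass (log2 -0.05, edgeR adjusted p = 0.871). Over the 676 tested genes of chromosome 10 the median log2 difference was -0.30.

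Of the 11 neighbours of Shc4 9 were tested by edgeR, and 6 were higher and 0 lower, beside 18.3% and 19.3% of all tested genes. The nearest gene that does not overlap Shc4, Cep152, 2.334 kb away, did not pass (log2 -0.36, edgeR adjusted p = 0.212). On the other side Secisbp2l, 12.8 kb away, rose (log2 0.56, edgeR adjusted p = 0.00339). The largest differences were farther off, and those genes were picked out after their values were seen. Fgf7, a growth factor for epithelial cells, had a log2 difference of 5.84 and Fbn1, which encodes the matrix protein fibrillin-1, of 3.47 (edgeR adjusted p = 8.31e-06 and 0.000213). They lie 310.5 and 121 kb from Shc4. Eid1, an inhibitor of the coactivator p300, lies inside the Shc4 interval on the opposite strand (chr2:125673100-125675642). Eid1 rose from 55.9 ± 1.55 to 162 ± 20.2 CPM (log2 1.53, edgeR adjusted p = 4.48e-05). It overlaps 0 of the 12 exons of the longest Shc4 transcript in GENCODE M21 and 1 of the 9 exons in each of the other protein-coding ones. Whether reads were counted by strand is not given in the sources used here, so reads of Eid1 may be part of the Shc4 count, and the Shc4 value is uncertain to that degree. The median over 1107 tested genes of chromosome 2 was -0.05.

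Near Shc1 the closest genes on either side did not pass: Cks1b, 0.26 kb away (log2 -0.33, edgeR adjusted p = 0.527), and Pygo2, 0.808 kb away (0.13, edgeR adjusted p = 0.525). All 10 neighbours of Shc1 were tested, with 2 higher and 2 lower, close to the shares over all tested genes (18.3% and 19.3%). The potassium channel gene Kcnn3, 90.1 kb from Shc1, fell from 10.1 ± 0.820 to 0.243 ± 0.0876 CPM (log2 -5.35, edgeR adjusted p = 4.66e-06). Of the 10 neighbours of Shc3 6 were tested, and 0 were higher and 2 lower by edgeR, beside the same shares. The nearest tested ones, Cks2 (78.1 kb, log2 -0.87, edgeR adjusted p = 0.255) and Spin1 (278.5 kb, log2 0.22, edgeR adjusted p = 0.245), did not pass.

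**Figure D4:**
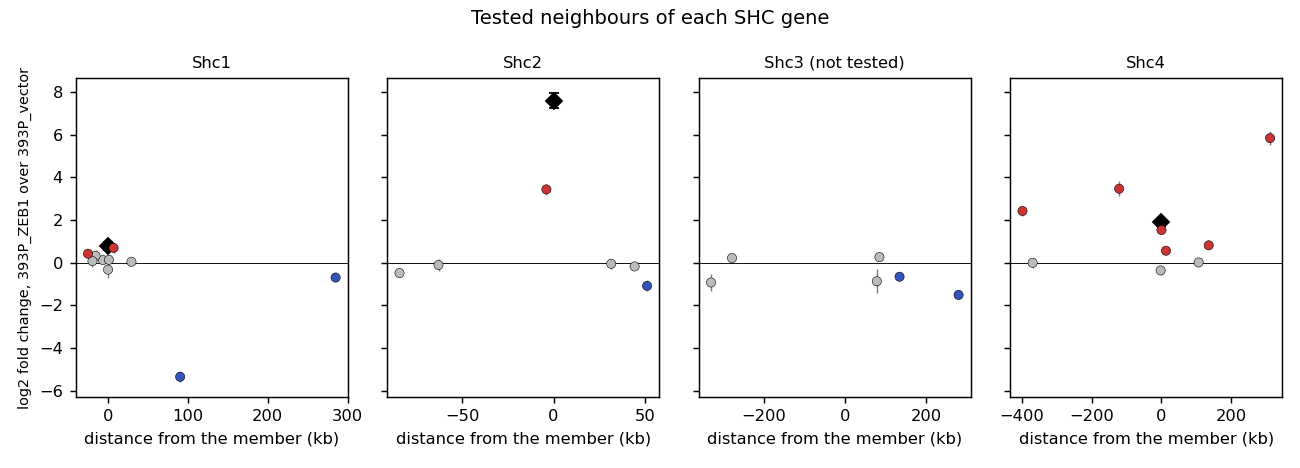
Log2 fold change (± SE) of the tested neighbours of each SHC gene against their distance from the member in kilobases (negative towards lower coordinates, 0 for an overlapping gene); red points were higher and blue points lower at an adjusted p of 0.05 by edgeR, and grey points were not past it. The black diamond is the member itself; of the tested neighbours 1 of 6 was higher around Shc2 and 6 of 9 around Shc4, beside 18.3% of all tested genes.

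The genes most like each member across the 6 samples were found by the Euclidean distance between log2 CPM values centred on their mean, with 10099 genes above 5 CPM as candidates. For Shc2 the nearest were Emb (0.867), Slc1a3 (0.897), Ror2 (1.13), Smoc2 (1.22) and Pilra (1.24). Like Shc2, these were at or below 0.469 CPM on average in 393P_vector, and they lie on chromosomes other than its own. Emb encodes embigin, Slc1a3 a glutamate transporter and Ror2 a WNT5A receptor. Their 393P_ZEB1 means ranged from 18.8 CPM (Pilra) to 92.7 CPM (Smoc2). Ror2, Smoc2 and Slc1a3 were, with Shc2, among the 5 largest increases by which the family was chosen, and Emb came next below. Their likeness to Shc2 therefore largely repeats the values of that choice.

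For Shc1 the nearest were Dcaf8 (0.106), Nbr1 (0.137), Tmco4 (0.151), Hdac1 (0.156) and Rin2 (0.158). Dcaf8 was at 140 ± 35.4 CPM in 393P_vector and 249 ± 18.0 CPM in 393P_ZEB1, with a vector spread close to that of Shc1. For Shc4, looked up after its values were seen, the nearest were Nab2 (0.251), a repressor that binds EGR1, and Flt4 (0.252). Nab2 went from 20.3 ± 2.29 to 76.3 ± 1.06 CPM. Likeness here is over 6 samples that share 2 conditions, and nothing is read from it about shared function or control.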

How the data were processed

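The authors deposited, for each of 6 samples (3 per group, grouped by the labels), the unnormalized count of reads per feature for 24214 features, with exon counts and an RPKM, which the authors scaled by exon length and library total. Libraries were made from total RNA for SOLiD sequencing. Aligner, counting program and strand setting are not given in the sources used here. Coordinates are GRCm38.

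Counts were fitted in R 4.3.3 with edgeR 4.0.16 (filterByExpr with a minimum count of 10, TMM, robust quasi-likelihood fit, Benjamini-Hochberg over 13892 genes, threshold 0.05). DESeq2 1.42.0 was an alternative. The procedure was tested on simulated data, in which no replicate stood apart as vector replicate 3 does here. CPM used TMM-scaled library sizes, and likeness used log2 CPM with 0.1 added. Lengths for CPM per kilobase are those in the tables. RPKM served only as an alternative to CPM per kilobase. Totals were 54442450 to 79158012 counts. Replicates differed beyond sampling noise.

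The members and gene lists were chosen with earlier results of these data known, so members have no p. Named genes were the members, Grb2, Sos1, Sos2, Gab1, Mapk3 and Shcbp1, up to 3 genes each way with the largest change among those past the threshold in a list, overlapping and nearest tested neighbours, and the 5 genes most like Shc1 and Shc2. Markers, Itga6, Ntrk2, Ntrk3, Odf3l2, Kcnn3, Fgf7, Fbn1, Zeb1 and the genes like Shc4 were named beyond that rule, after their values were seen. Hras and Map2 are listed as Hras1 and Mtap2. Some genes of the lists are not reported here by name.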

Additional observations from a re-analysis of the deposited data

How the results depend on the processing

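Across 181 recomputed values for 19 results, 158 stayed within the spread or within 1.5 times the count, 23 moved, and none reversed. With single samples left out, the log2 difference of Shc1 lay between 0.60 and 0.90, that of Shc2 between 7.28 and 8.28, and that of Shc4 between 1.76 and 2.05. With the replicate block the values were 0.82, 7.62 and 1.90. Same-numbered samples correlated at 0.195, -0.126 and -0.0276 in their deviations, so the numbers were not shown to pair samples, and 2180 genes were higher and 2256 lower with the block. Grb2 passed with the block (edgeR adjusted p = 0.0136). With a minimum of 10 counts in every sample Shc2 has no value. Against a 1.5-fold change, 1081 of all genes were higher and 1118 lower. At an adjusted p of 0.01 by edgeR these were 1584 and 1545, and with single samples left out 1861 to 3700 and 1784 to 3776 (1784 without 393P_ZEB1 replicate 3). In the 6 lists together 11 were higher and 13 lower against a 1.5-fold change, 14 higher at 0.01, and 16 to 34 higher with single samples left out (16 without 393P_ZEB1 replicate 1). Calls against a 1.5-fold change were 4 for integrins and Src-family kinases, 4 for adaptors, 1 for the cascade and 3 for enzymes acting on SHC. At 0.01 they were 3 for the cascade and 3 for the enzymes, and with single samples left out 4 to 14 and 3 to 6 (3 without vector replicate 1 or 393P_ZEB1 replicate 2). The cause was not tested beyond the smaller samples and stricter thresholds.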
